A study of Sus scrofa with 6 samples.

Results

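The miRNAs described here were ssc-miR-15b and ssc-miR-424, which belong to the miR-15/16 seed family, and ssc-miR-424*, which comes from the other arm of the miR-424 hairpin. They were taken by name from the miRNA microarray and made up 3 of its 236 rows with a pig miRNA name. The arrays carried liver RNA of newborn male piglets of 2 breeds, purebred Large White (LW), a lean Western breed, and purebred Erhualian (EHL), a Chinese indigenous breed known for high adiposity. Each breed had 3 arrays, and each array carried RNA pooled from 2 littermates, so that 6 piglets from 3 litters stood behind each breed. No treatment was given, and the piglets came from neighbouring farms, so that breed and farm cannot be told apart where each breed came from its own farm. The question was whether these miRNAs differ between the breeds.

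A miRNA guides a silencing complex to mRNAs that pair with its seed, bases 2 to 8 from the 5′ end, and the mRNA is then degraded or translated less. Members of the miR-15/16 family share the seed and are known to repress cyclin D1, cyclin E1, CDK6, CHEK1, WEE1 and the anti-apoptotic BCL2, and so to slow the passage from G1 to S phase. miR-15b is transcribed together with a copy of miR-16 from an intron of SMC4, which encodes a condensin subunit. miR-424, with its neighbour miR-503, is known to rise during muscle and monocyte differentiation and to repress CDC25A. In newborn liver, hepatocytes still divide and blood-forming cells are leaving the organ.

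The seed that defines the family is shown in the RT-qPCR forward primer that the study designed for miR-15b. Such primers carry the sequence of the miRNA itself in DNA letters, and bases 2 to 8, the seed, are in capitals.
miR-15b: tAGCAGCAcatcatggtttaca
The primer has 22 bases, and it was 1 of 18 miRNA primers of the study, of which 1 had this seed. Of 12 miRNA genes of the family and its clusters, 10 were found by symbol among the RefSeq genes of Sscrofa11.1. There, the miRNA gene nearest to MIR15B was MIR16-1 and both overlapped SMC4, while MIR15A had MIR16-2 and MIR195 had MIR497 as the nearest. The mature miR-16 of both pairs is read by a single row of the array.

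The 3 members were listed on all 6 arrays. A signal here is the fluorescence of 1 dye after the background subtraction and normalization of the authors, on a linear scale. Rows of the array were listed with signals from as low as 10 to 16, depending on the array, up to between 18287 and 28071. Between 101 and 134 of the 236 named rows had a value on an array, and 96 had one on all 6. The tissue label was borne out by miR-122, the main hepatocyte miRNA, with signals between 18958 and 28071 in LW and between 18287 and 20649 in EHL. Signals of different miRNAs are not ranked against each other, because the probes need not bind their targets equally well. The mature sequences of the family are alike, and whether 1 miRNA bound the probe of another was not tested.

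The signal of miR-15b was lower in EHL on every array. It stood at 155, 144 and 183 on LW arrays 1, 2 and 3 and at 128, 116 and 113 on EHL arrays 1, 2 and 3. The lowest LW array thus lay above the highest EHL array. On the log2 scale the signal was 7.32 ± 0.18 for LW arrays and 6.89 ± 0.095 for EHL arrays (mean ± SD, n = 3 per breed), and LW was 1.35-fold over EHL. The log2 ratio of EHL to LW was -0.43, with a standard error of 0.24 and a 95% interval from -0.97 to 0.12, and it did not pass an FDR of 15% over the 109 miRNAs tested by limma (adjusted p = 0.518, unadjusted p = 0.109). The exact two-sided permutation test gave p = 0.1, and no smaller p can be reached with 3 arrays a breed. The interval runs from a level in EHL of 0.510 times that in LW to 1.08 times. The pooled SD of miR-15b within the breeds was 0.14, beside a median of 0.35 for the miRNAs listed on all 6 arrays. Since limma draws the variance of each miRNA towards that of the others, the standard error of miR-15b was raised. Dropping any single array left the log2 ratio between -0.50 and -0.33.

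miR-424 was the most uneven of the members. Its signal was 45, 84 and 82 on LW arrays 1, 2 and 3, and 213, 46 and 28 on EHL arrays 1, 2 and 3. EHL thus held both the highest and the lowest array, and the breeds overlapped. The log2 signal was 6.08 ± 0.51 for LW arrays and 6.02 ± 1.53 for EHL arrays (mean ± SD, n = 3 per breed). The log2 ratio was -0.059, with a standard error of 0.66 and a 95% interval from -1.54 to 1.42 (limma, adjusted p = 0.974), a difference far smaller than the spread between the arrays. That interval allows a level in EHL from 0.344 to 2.68 times that in LW. The ratio of the mean linear signals was 0.44 on the log2 scale, opposite in sign to the mean of the log2 signals.

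miR-424*, the opposite arm, was listed at nearly the same signal everywhere. It had 52, 54 and 54 on LW arrays 1, 2 and 3, and 53, 58 and 49 on EHL arrays 1, 2 and 3. The mean signal was 53.3 in both breeds, with an SD of 1.15 in LW and 4.51 in EHL (n = 3 arrays each). The log2 signal was 5.74 ± 0.031 in LW and 5.73 ± 0.12 in EHL, and the log2 ratio was -0.0032 with a standard error of 0.23 (limma, adjusted p = 0.991). Its 95% interval from -0.53 to 0.52 covers a level in EHL from 0.692 to 1.44 times that in LW. That interval is wide for such steady values because limma draws the variance of each miRNA towards that of the others.

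**Figure D1:**
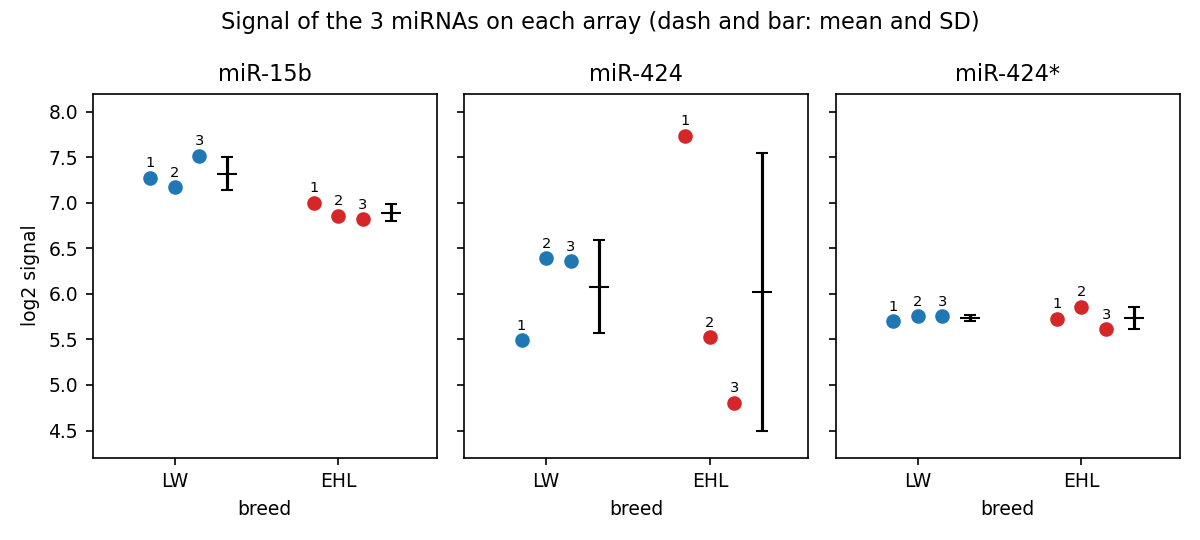
Log2 signal (y axis) of miR-15b, miR-424 and miR-424* on the 3 LW and 3 EHL arrays, numbered by array, with the mean and SD of each breed beside the points. The EHL points of miR-15b lie below all LW points, those of miR-424 run from 28 to 213 on the linear scale, and those of miR-424* lie within the range from 49 to 58.

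Of the 109 miRNAs tested by limma, 1 was called higher in EHL at the FDR of 15%, or 0.917%, and it was miR-184, with a log2 ratio of 1.72 (adjusted p = 0.0253). None was called lower, or 0%, and 5 were lower and 8 higher at an unadjusted p under 0.05. SAM, as recomputed here, called 8 higher and 0 lower, and its count depends on a constant whose value in the study is not given in the sources used here. Its calls therefore cannot stand for those of the study. None of the 3 members was called by limma or by this recomputed SAM. The study's own SAM did list miR-15b as lower in EHL at an FDR under 15%, and did not list miR-424 or its other arm. Its RT-qPCR found miR-15b lower in EHL as well, in single piglets of the same litters that were pooled for the arrays, so it is not an independent set of animals. Its sequencing gave no ratio for miR-15b, whose reads fell below the study's abundance limit in both breeds. Among the 96 miRNAs listed on all 6 arrays, all EHL signals lay below all LW signals for 7, or 7.29%, and above them for 11, or 11.5%. Of the members, 1 was below in this way, miR-15b, and none was above. In the order of log2 ratios from the lowest, miR-15b was number 16, miR-424 number 43 and miR-424* number 53 of 109.

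**Figure D2:**
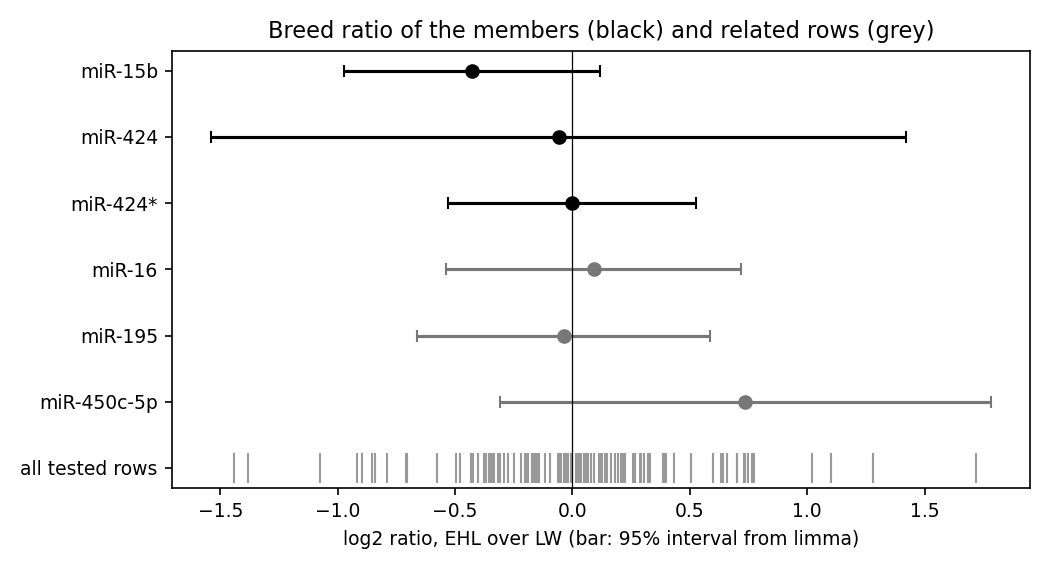
Log2 ratio of EHL over LW (x axis) with its 95% interval from limma for the 3 members in black and for the tested rows of the seed family and the genomic clusters in grey, above the ratios of all 109 tested miRNAs as ticks. Every interval drawn spans 0, and that of miR-424 is the widest.

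The signal of miR-424 on EHL array 1 was 2.54-fold over the next highest array, and miR-424 was the only 1 of the 96 miRNAs listed on all 6 arrays to be at least 2-fold over its next highest array there. Without EHL array 1, the log2 ratio of miR-424 was -0.92 with a standard error of 0.36, and limma called it lower in EHL (adjusted p = 0.108). The background was then high as well, since 9 of 97 miRNAs tested, or 9.28%, were called lower without that array. Without EHL array 3, which held the lowest signal, the log2 ratio was 0.55 (adjusted p = 0.905), so the direction turned on a single array. The erythroid miRNAs miR-451 and miR-486 had a summed signal of 410 on EHL array 1, of 78 and 85 on EHL arrays 2 and 3, and between 124 and 249 in LW. Most of the sum was miR-451, at 376, 54 and 63 on EHL arrays 1, 2 and 3 and between 100 and 220 in LW. miR-486 moved less, at 34, 24 and 22 on EHL arrays 1, 2 and 3 and between 24 and 29 in LW. Markers of other cells were high on that array too. The hepatocyte miR-148a stood at 2256 there and at most at 1326 elsewhere, and the endothelial miR-126 at 4524 and at most at 4098. Others were not, with miR-122 at 20649 beside up to 28071 in LW. The summed rows of stellate cells and smooth muscle were lowest there, at 3101. The part of blood cells or other cells in the signal of miR-424 was not tested. In pooled liver RNA, fewer cells of a type and less miRNA per cell cannot be told apart.

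**Figure D3:**
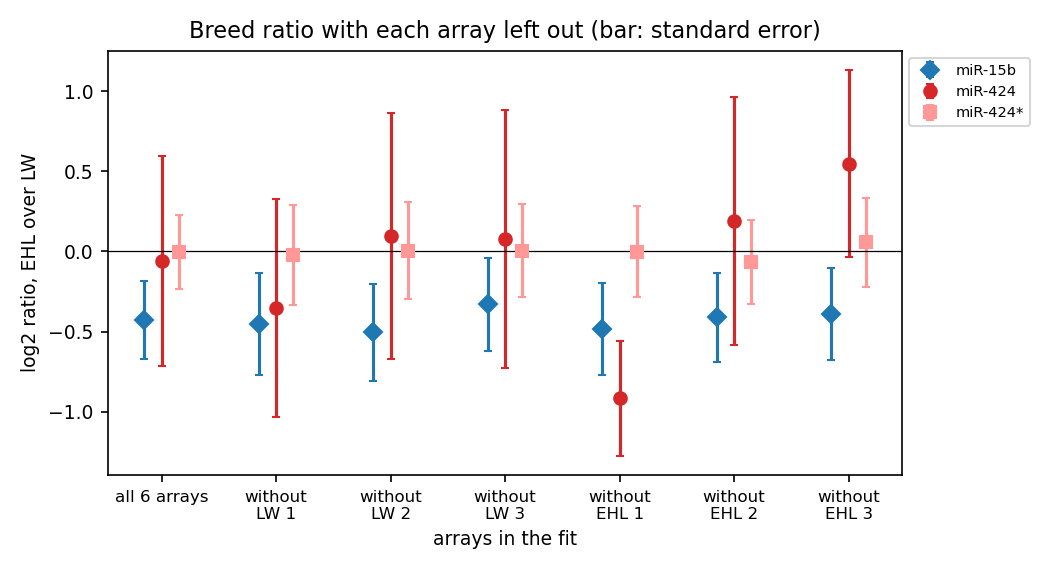
Log2 ratio of EHL over LW with its standard error from limma (y axis) for the 3 members, with all 6 arrays and with each array left out (x axis). The ratio of miR-15b stays between -0.50 and -0.33 when an array is left out, that of miR-424 moves between -0.92 and 0.55, and that of miR-424* stays between -0.065 and 0.056.

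The arms of the miR-424 hairpin were compared within each array, which asks if they move alike and not which is more abundant. The log2 signal of miR-424 minus that of miR-424* was -0.21, 0.64 and 0.60 on LW arrays 1, 2 and 3, and 2.01, -0.33 and -0.81 on EHL arrays 1, 2 and 3. The arms did not keep a constant ratio across arrays, and miR-424 moved 7.61-fold where miR-424* moved 1.18-fold. Without EHL array 1, miR-424 moved 3-fold, from 28 to 84, and miR-424* again 1.18-fold. The difference between the breeds was -0.055 (exact two-sided permutation p = 0.9, with overlap). The log2 signal of miR-15b minus that of miR-424 was 1.24 ± 0.51 for LW arrays and 0.87 ± 1.43 for EHL arrays (mean ± SD, n = 3 per breed), so that the breeds differed by -0.37 (exact two-sided permutation p = 0.9). Its range in EHL, from -0.73 on array 1 to 2.01 on array 3, covered the whole range in LW.

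Spread over the arrays separated the members more than breed did. The SD of the log2 signal over the 6 arrays was 0.080 for miR-424*, 0.27 for miR-15b and 1.02 for miR-424, beside a median of 0.37 for the 96 miRNAs listed on all of them. Of these 96, none had a smaller SD than miR-424*, and 4 had a larger one than miR-424. Without EHL array 1 the SD of miR-424 was 0.67, with 17 of the 96 above it, and when any single array was left out at most 1 had a smaller SD than miR-424*. The signal was 1.18-fold from the lowest to the highest array for miR-424*, 1.62-fold for miR-15b and 7.61-fold for miR-424. Of the 16 other miRNAs whose mean signal was within 1.5-fold of that of miR-424*, between 36.2 and 76.7, the SD was between 0.16 and 0.99, and its median was 0.45. Within the breeds, the pooled SD of miR-15b was 0.14 against a median of 0.35, and 2 of the 96 had a smaller one. The breed difference of 0.43 in size was thus about the median spread of a miRNA over the arrays, but it exceeded the spread of miR-15b within either breed.

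**Figure D4:**
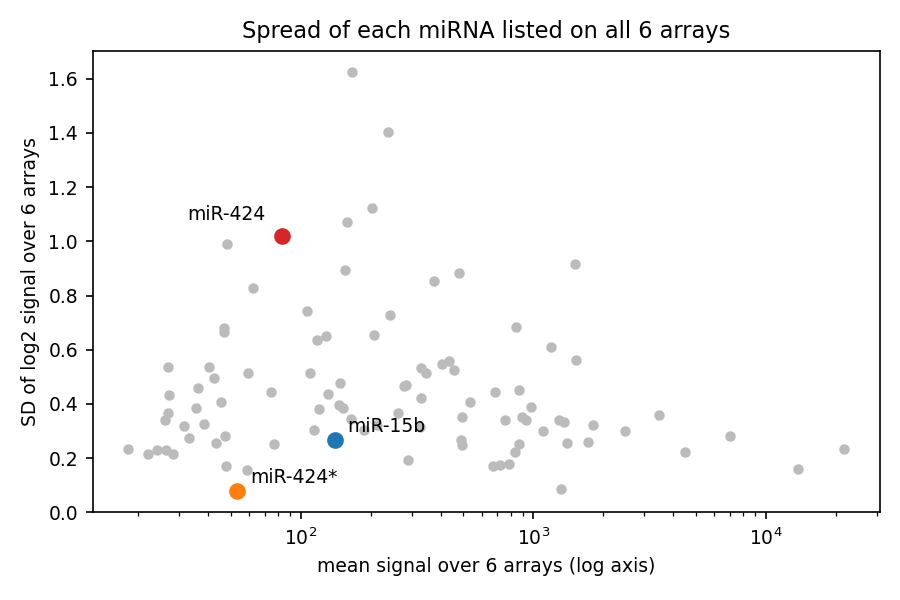
SD of the log2 signal over the 6 arrays (y axis) against the mean signal on a log axis (x axis) for the 96 miRNAs listed on all 6 arrays. miR-424* has the lowest SD of all, 0.080, miR-15b lies at 0.27, and 4 miRNAs have a larger SD than the 1.02 of miR-424.

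Of the other members of the seed family, the tested ones, miR-16 and miR-195, were not called and their breeds overlapped. The array had 7 rows counted to the family by name, of which 4 were listed on all 6 arrays and tested. A further 2, miR-497 and miR-503, were blank on all. Apart from the miR-15b primer, no sequence was checked for the seed, so the 7 need not all carry it in full. The 4 included miR-15b and miR-424. None of the 4 was called in either direction, beside 1 of all 109 tested. Of the 4, 3 had a log2 ratio below 0 and 1 above, and their median was -0.048, beside 0.025 for all 109 tested. miR-16, the founding member of the family, stood at 495, 426 and 485 on LW arrays 1, 2 and 3, and at 642, 372 and 517 on EHL arrays 1, 2 and 3. Its breeds overlapped, with a log2 ratio of 0.091 and a standard error of 0.28 (limma, adjusted p = 0.953). miR-195, which shares a cluster with miR-497, stood at 35, 41 and 56 in LW and at 48, 43 and 36 in EHL, with a log2 ratio of -0.038 and a standard error of 0.28 (limma, adjusted p = 0.974). Its EHL range lay inside its LW range. miR-15a, which shares its cluster with the other gene of miR-16, was listed at 20, 33 and 18 in LW and at 56 on EHL array 1, and it was blank on EHL arrays 2 and 3. It had too few values for the test, and a blank gives no level. Among the 4 family rows listed on all arrays, miR-15b was the single one whose breeds did not overlap. Of all 96 miRNAs listed on every array, 7.29% lay wholly lower in EHL and 11.5% wholly higher, so 1 of 4 does not set the family apart.

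miR-15b and the miR-16 row differed in which arrays were high. The highest EHL array of miR-16, array 1, was above all LW arrays, whereas the highest of miR-15b was below them. Over the 6 arrays, Pearson's r of the log2 signals was 0.053 for miR-15b with miR-16, 0.27 for miR-15b with miR-424 and 0.26 for miR-424 with miR-424*. These values describe 6 arrays and carry no test. Since the miR-16 row also reads miRNA from MIR16-2, a shared transcript with miR-15b cannot be followed through it.

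Of the miRNAs from the genomic clusters of miR-15b and miR-424, the array had 9 rows, and 6 of them were blank on all arrays: miR-503, miR-542-5p, miR-450a, miR-450b-5p, miR-450b-3p and miR-450c-3p. The miR-450 and miR-542 miRNAs lie downstream of miR-424 and miR-503 on the X chromosome of mammals. miR-450c-5p was listed at 27, 31 and 30 on LW arrays 1, 2 and 3, at 85 on EHL array 1 and at 28 on EHL array 3, and was blank on EHL array 2. EHL array 1 was thus 2.74-fold over the next highest array, beside 2.54-fold for miR-424. The log2 ratio of miR-450c-5p was 0.74 with a standard error of 0.45 (limma, adjusted p = 0.593), and it rested on that array. miR-542-3p was listed on 2 arrays, at 18 on LW array 2 and at 26 on EHL array 1. The high signal of miR-424 on EHL array 1 was therefore shared by miR-450c-5p, while miR-424* stood at 53 there.

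**Figure D5:**
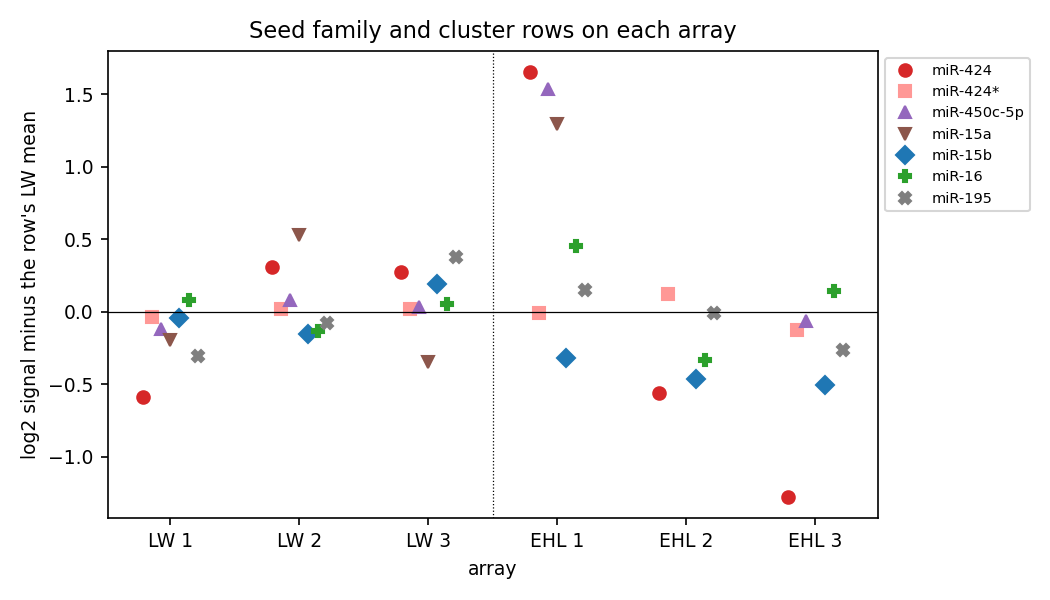
Log2 signal minus the LW mean of the same row (y axis) on each of the 6 arrays (x axis) for the members and for the family and cluster rows listed on at least 4 arrays. On EHL array 1, miR-424, miR-450c-5p and miR-15a are high together, with signals of 213, 85 and 56, while miR-15b is below its LW mean and miR-424* is near it.

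Among the 93 other miRNAs listed on all 6 arrays, the 3 whose log2 signal followed each member most closely were found by Pearson's r, which is given as a description of 6 arrays from 1 tissue. For miR-15b they were miR-885-5p with an r of 0.974, miR-27a with 0.885 and miR-204 with 0.814. Between deviations from the breed means, r was 0.964 for miR-885-5p, 0.428 for miR-27a and 0.578 for miR-204, so that the likeness to miR-27a and miR-204 rested in good part on a lower mean in EHL. miR-885-5p had the same order of the 6 arrays as miR-15b, from 26 on EHL array 3 to 69 on LW array 3. For miR-424 they were miR-148a with 0.826, miR-345-3p with 0.813 and miR-215 with 0.801. Without EHL array 1, r was 0.462 for miR-148a, 0.731 for miR-345-3p and 0.991 for miR-215. Without EHL arrays 1 and 3, the farthest from the median of miR-424, r was 0.896, 0.621 and 0.978. The likeness to miR-148a thus changed with the arrays left out and did not rest on EHL array 1 alone. For miR-424* they were let-7e with 0.920, let-7a with 0.819 and let-7c with 0.811, over signals of miR-424* that differ by at most 1.18-fold.

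Other miRNAs known to act on the cell cycle gave a background for the family. Of 12 rows that restrain proliferation, such as the let-7 miRNAs, miR-26a and miR-29a, 8 were tested by limma and none was called. Their median log2 ratio was -0.074, with 7 below 0, from -0.92 for let-7f to 0.29 for let-7e. Of 9 rows that promote it, from the miR-17 family and cluster, miR-21, miR-221 and miR-222, 8 were tested and none was called. Their median was -0.17, with 7 below 0, from -0.84 for miR-21, with a standard error of 0.97, to 0.067 for miR-20. In this list miR-221 lay wholly lower in EHL, as did 7.29% of the 96 miRNAs listed on all arrays. Its log2 ratio was -0.79 (limma, adjusted p = 0.291), and the study's own SAM listed it as lower. Among all 109 miRNAs tested, 53 were below 0, and the sign of small ratios depends on the scaling of the arrays. Centring each array on the median of the miRNAs listed on all 6 arrays changed each of their ratios by -0.043, which took miR-15b to -0.47 (limma, adjusted p = 0.478). Centring on the median of every listed row, an alternative chosen after seeing the data, changed them by -0.28 and took miR-15b to -0.71 (limma, adjusted p = 0.653). That median also depends on which rows were listed, from 101 named rows on EHL array 2 to 134 on LW array 2.

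Markers of other cells were listed as follows. Of the 4 hepatocyte rows 3 were listed on all arrays and miR-194 was blank, with a summed signal between 24963 and 33001 in LW and between 24137 and 28497 in EHL. The 6 rows of stellate cells and smooth muscle summed to between 3336 and 4080 in LW and to between 3101 and 4970 in EHL. Within that list miR-143-3p did not overlap between the breeds, at 306, 264 and 212 on LW arrays 1, 2 and 3 and at 308, 398 and 484 on EHL arrays 1, 2 and 3, with a log2 ratio of 0.60 (limma, adjusted p = 0.443). In the same list miR-199a-3p had a log2 ratio of -0.43, with overlap (limma, adjusted p = 0.593). The endothelial miR-126 stood between 2209 and 4098 in LW and between 3110 and 4524 in EHL. Of the 4 skeletal muscle rows 3 were blank throughout. The leukocyte row, miR-155, was blank on every array, so leukocytes could not be compared here. The study's sequencing of pooled RNA did detect miR-155, with more reads in EHL. The summed levels of the other lists overlapped between the breeds, although miR-143-3p did not. The part of any of these cells in the values of miR-15b was not tested.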

How the data were processed

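Liver miRNA of 6 pools was measured on pig miRNA arrays with probes to miRBase. The authors subtracted the background, normalized by LOWESS and deposited 1 fluorescence intensity per row and array as whole numbers. The study ascribes missing array values to low signal, and the threshold behind the blank cells is not given in the sources used here. Normalization fixes the overall balance between arrays, so small ratios depend on it. Intensities were converted to log2 without a pseudocount. The breeds were compared in limma 3.58.1 under R 4.3.3 (lmFit, eBayes, breed as the only term). The 109 named rows listed on 2 or more arrays per breed were tested, p-values were adjusted by Benjamini-Hochberg over all of them, and calls were made at an adjusted p under 0.15. The 100 rows with an LRS label entered only an alternative. The fit was tested on simulated data. SAM was recomputed over 20 labellings of the arrays with its constant at the 5th percentile of the standard errors. Figures used Python 3.11.15 and matplotlib 3.10.9.

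The members, the lists and the tests were chosen with earlier results of these data known. Named miRNAs were the members, the rows of the seed family and the clusters, the 3 most like each member, called miRNAs, and the extremes of the cell cycle lists. Some marker rows, and miR-221 as the cell cycle row without overlap, were named as well. The number of arrays limits the precision. Deviations from the breed means correlated at -0.50, -0.011 and -0.66 between same-numbered arrays, and the replicate numbers were therefore not taken as pairs. Arrays of a breed carried different litters, and p-values measure the spread between these pools.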

Additional observations from a re-analysis of the deposited data

How the results depend on the processing

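miR-15b kept a negative log2 ratio under all 21 alternatives, between -0.71 and -0.33, and was not called in the 20 with a test (adjusted p between 0.215 and 0.976). The -0.71 came from centring on every listed row. Several alternatives, such as SAM and the replicate block, cannot change this ratio. Dropping 1 array could not turn its sign, since every EHL signal lay below every LW signal. The constant sign is therefore not separate support. Dropping 1 array at a time, miR-424 ranged from -0.92 to 0.55 and miR-424* from -0.065 to 0.056. miR-424 was positive with log2 of signal plus 16 (0.021) and as a ratio of mean linear signals (0.44), and it was -0.50 with array weights, -0.33 with quantile normalization of tested rows and -0.34 with centring on every listed row. miR-424* stood at 0.015 with array weights, at 0 with mean linear signals and at -0.29 with centring on every listed row. The adjusted p of miR-424 was between 0.108 and 1 and that of miR-424* between 0.856 and 1. The arm difference between the breeds was 0.023 with log2 of signal plus 16, 0.44 with mean linear signals and between -0.91 and 0.49 without an array, and the difference of miR-15b and miR-424 lay between -0.94 and 0.43. The median of the tested family rows ranged from -0.31 without EHL array 1 to 0.098 without LW array 3.

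The number called was 1 higher and 0 lower by limma. It was 8 and 0 by SAM, 15 and 7 with array weights, and 0 and 0 with the replicate block, where 8 had an unadjusted p under 0.05. Quantile normalization gave 1 and 1, over tested rows and over rows listed on all 6 arrays, as did testing the LRS rows too, and centring on every listed row left none in either direction (9 had an unadjusted p under 0.05). Without an array the counts were 0 to 15 higher and 0 to 9 lower, with 15 and 9 without EHL array 1, none higher without LW array 3 or EHL array 2, and 1 lower without LW array 1. Quantile normalization of rows listed on all arrays, centring on every listed row, and the family median and the SD of the members without an array were chosen after seeing the data. Apart from fewer arrays or rows in a fit, the cause was not tested. A replicate block changed no call of a member.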
